A study of Mus musculus and other sequences with 2 samples.

Results

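The mouse miRNAs numbered 680 to 721 were followed in culture media that had held blastocysts and in media that had not. They were taken by name from a TaqMan rodent miRNA array, as every assay named for mouse with a number from 680 to 721 and without the # that marks a minor arm. This gave 35 of the 750 miRNA assays of the array, 8 on card A and 27 on card B. Conditioned media came from an 8 μL microdroplet of KSOM with polyvinylacetate, as its label has it, in place of BSA, in which a pool of 25 CD1 embryos was kept from 99 to 116 h post-hCG, from late morula to blastocyst. The embryos had been grown from zygotes of superovulated CD1 females, 3 wk old. Blank media was the same formula kept for 17 h with no embryos. Both had 1 sample, lysed without RNA extraction, reverse transcribed and pre-amplified for 12 cycles, and each assay had 1 well per medium. No test between the media was therefore possible, and the values below compare 2 samples and not 2 conditions.

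A miRNA is cut from a hairpin precursor and guides the silencing complex to messenger RNAs, mostly through its seed, the bases at positions 2 to 8. Names are numbered in order of registration. Many numbers in this block were registered from short-tag sequencing of mid-gestation mouse embryos, before deep sequencing of small RNA was routine, and some have since been withdrawn or traced to other RNA. The sequence called miR-720 is now regarded as a fragment of a threonine transfer RNA, and miR-712 was traced to the precursor of ribosomal RNA. Others, such as miR-708, are well-supported vertebrate miRNAs.

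Mature sequences were matched by name to RefSeq entries for GRCm38.p6 for 24 of the 35 assays. The names miR-698, miR-700, miR-701 and miR-702 do not say which arm is measured, and miR-684, miR-685, miR-694, miR-696, miR-712, miR-715 and miR-720 had no entry. Shown first are the 5 matched sequences with a Ct below 35 in conditioned media that were undetermined in blank media, with the seed in capitals and the rest in lower case.
miR-693-3p: gCAGCUUUcagauguggcuguaa
miR-687: cUAUCCUGgaaugcagcaauga
miR-692: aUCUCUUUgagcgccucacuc
miR-690: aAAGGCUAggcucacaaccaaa
miR-706: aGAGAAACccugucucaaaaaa

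The next 3 are shown because miR-683 and miR-697 were among the 5 earliest of these assays in blank media, and because miR-686 was detected in blank media and not in conditioned media.
miR-683: cCUGCUGUaagcuguguccuc
miR-697: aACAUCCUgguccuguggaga
miR-686: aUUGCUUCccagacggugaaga

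The last 2 are shown each above a well-known miRNA with the same seed, since they tie this block to conserved families.
miR-708: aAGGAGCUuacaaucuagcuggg
miR-28a-5p: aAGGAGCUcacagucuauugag
miR-721: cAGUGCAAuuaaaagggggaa
miR-130a-3p: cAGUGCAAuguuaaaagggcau

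All 24 seeds differed from one another. A seed shared with another RefSeq mouse miRNA was found for 3 of the 24, which were miR-708, miR-721 and miR-686, or 12.5%, beside 26.8% of 142 other mature names on the array. The mature sequences were 19 to 23 bases long, with a median GC share of 50.0% and a range from 36.4% to 81.0%. For 143 other mouse assays with a sequence, the median GC share was 52.9%. Among the 24, GC share did not separate detected from undetected assays, since the median was 50.0% for the 13 detected in either medium and 50.0% for the 11 detected in neither.

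The 24 sequences had 29 genomic copies in these entries, and 21 lay inside the span of a gene that is not a miRNA gene, on either strand. In GRCm38.p6, miR-693-3p lies at chr17:46231581-46231603 on the + strand, within the span of Xpo5, the exportin that carries miRNA precursors out of the nucleus. The sequence of miR-687 lies at chr14:73206808-73206829 on the - strand, within that of the tumour suppressor Rb1. Those of miR-690 (chr16:28599940-28599961, - strand) and miR-706 (chr6:120034290-120034311, - strand) lie within the spans of Fgf12 and Wnk1. The sequence of miR-692 had 3 copies, 2 of them within pseudogenes of the iron storage protein ferritin light chain (Ftl2-ps and Ftl1-ps1). That of miR-686 lies within Psmb5, a proteasome subunit gene, and that of miR-697 within Sf3a3, a splicing factor gene. These spans carry no strand or exon information here, so whether a miRNA lies in an exon or an intron is not given.

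Each value is a Ct, the cycle at which fluorescence crosses a threshold, which falls by about 1 cycle for each doubling of template. An assay with a Ct below 35 was called detected. The study also set a limit on the height of the fluorescence signal, which was not applied here. Detection in a given medium could only be lost by it, so "detected" below is the looser call. A member that lost it in blank media alone would move from both media to conditioned media only. Which members would keep each call was not tested. With both limits, the study called far fewer sequences detected in each medium than the Ct limit alone did here, above all in blank media. The study counted a smaller set of miRNAs, so its counts are not matched to those below. Many of the calls below, above all those in blank media, may therefore be lost under both limits. Of the 35 assays, 18 were detected in conditioned media (37.3% over all 750 assays) and 14 in blank media (29.1% over all). Of these, 12 were detected in both media (23.5% over all), 6 in conditioned media only (13.9% over all) and 2 in blank media only (5.6% over all), while 15 were detected in neither (57.1% over all). With 1 sample per medium, these shares have no replicate error. Of the 18 detected with embryos, 12 thus had a Ct below 35 without them.

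**Figure D1:**
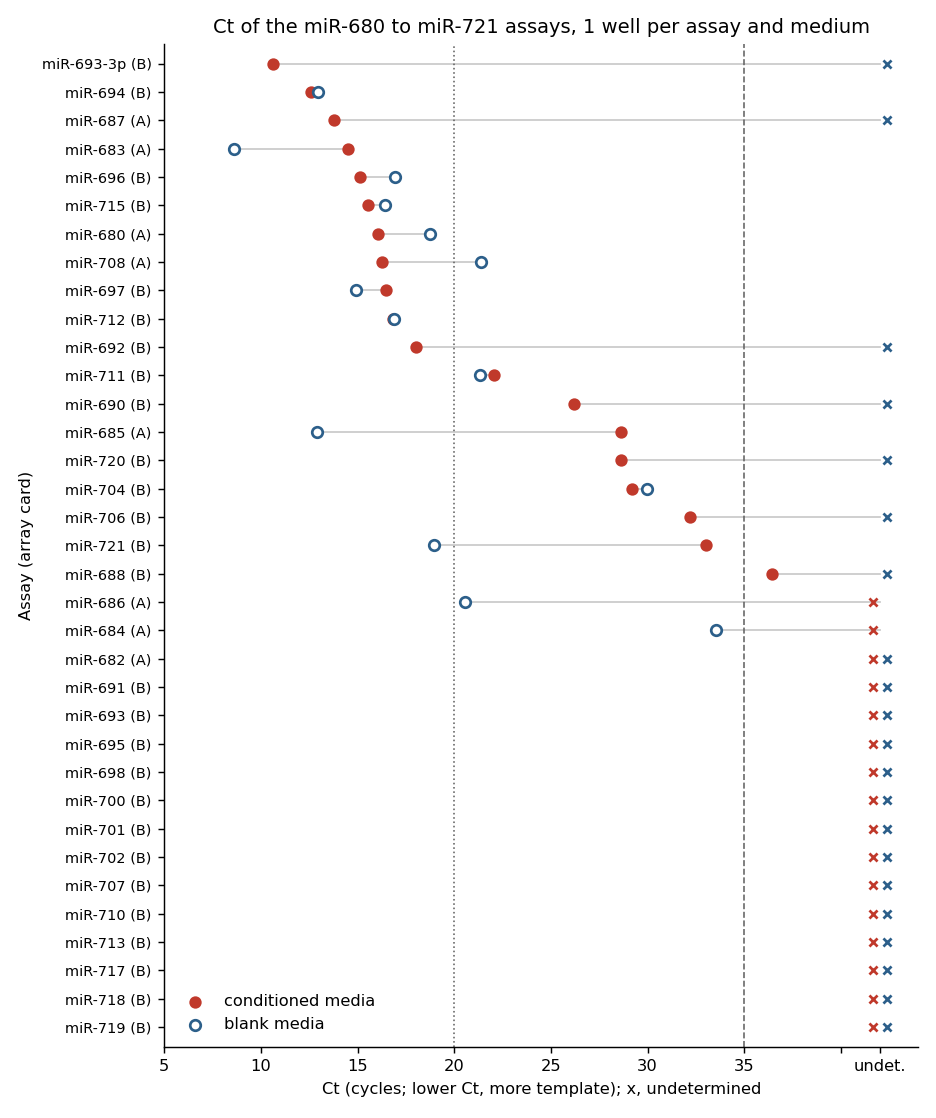
Ct in cycles (x axis) of each of the 35 assays (y axis, array card in brackets) in conditioned media (filled red) and blank media (open blue), 1 well each, with crosses at the right for undetermined wells. The dashed line marks the detection limit of 35 and the dotted line a Ct of 20; 11 assays in conditioned media and 9 in blank media lie to the left of the dotted line, and 14 were undetermined in both media.

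As a check of the labels, the small nucleolar RNAs snoRNA135 and snoRNA202 had a Ct between 28.5 and 33.02 on each card with embryos and none without, while the plant control ath-miR159a had none in either. The controls U87 and Y1 differed between cards. With embryos, U87 had a Ct of 32.7 on card A alone and Y1 a Ct of 15.5 on card B alone. Both were undetermined without embryos. Error between wells could be measured only on other assays. U6, a small nuclear RNA, had 4 wells per card. On card A its SD was 0.676 cycles with embryos and 3.22 without, and on card B it was 0.830 with embryos and 0.230 without. A total of 26 names had 2 assays on the array. When both were detected in the same sample, which occurred 8 times, they differed by 1.25 to 14.7 cycles with a median of 3.73. In 15 further cases 1 of the 2 was detected and the other was not. Differences in design or card between such assays were not separated from error between wells.

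A group of 6 members was detected in conditioned media and undetermined in blank media. The study called a longer set of sequences exclusive to conditioned media, also using its fluorescence limit. Its short list was cut from that set by a stricter limit on the signal in blank media. Of the 6, the short list holds miR-690 and miR-706. It does not hold miR-693-3p, miR-687, miR-692 or miR-720, which does not show whether these were in the longer set. The Ct values of the 6 in conditioned media covered nearly the whole range of the block. The latest was miR-706, with a Ct of 32.2. Its sequence is close to the 3′ part of the mouse B1 repeat, which has very many copies in the genome. Another was miR-720, the transfer RNA fragment, with a Ct of 28.6. For miR-690, a miRNA described in vesicles of macrophages, the Ct was 26.2. These 3 had a Ct between 20 and 35, where 10.9% of all 750 assays were found in conditioned media only, beside 8.57% of the 35.

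The other 3 had a Ct earlier than that of the U6 wells in conditioned media on either card, which lay between 18.99 and 21.3. They were miR-692 with a Ct of 18.03, miR-687, a hypoxia-induced miRNA of the kidney, with 13.8, and miR-693-3p with 10.6. Detection in conditioned media only with a Ct below 20 was found for these 3 of the 35, beside 22 of all 750 assays. In the order of Ct among the 280 assays detected in conditioned media, miR-693-3p took rank 20 and miR-706 rank 249. The assay for the opposite arm of the same hairpin, named miR-693, was undetermined in both media. Of the 6, miR-687 was on card A and the other 5 on card B.

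Of the 12 members detected in both media, 8 differed by 3 cycles or less, beside 104 of all 176 assays detected in both. The Ct was 16.9 in conditioned and 16.9 in blank media for miR-712, a flow-sensitive sequence of endothelium, with a difference, conditioned minus blank, of -0.058 cycles. It was 12.6 and 13.0 for miR-694, a difference of -0.386. For miR-711, which lies within the collagen gene Col7a1, the Ct was 22.0 and 21.3, a difference of 0.737. These 3 lay almost on the line of equal Ct.

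Small differences were also found for miR-704, miR-715, miR-697, miR-696 and miR-680. For miR-704, which lies within the protein disulfide isomerase gene Pdia4, the Ct was 29.2 in conditioned and 29.98 in blank media, a difference of -0.808. For miR-715 it was 15.6 and 16.4, a difference of -0.883. All of these differences were below the median of 3.73 cycles between assays of the same name. That median lies between 2 assays in the same medium, so it does not give the error of a difference between media. The Ct of miR-697 was 16.5 and 14.9, a difference of 1.58, and that of miR-696, described as a regulator of the coactivator PGC-1α in muscle, was 15.1 and 16.9, a difference of -1.82. For miR-680, which has 3 genomic copies of identical mature sequence, it was 16.1 and 18.8, a difference of -2.70.

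**Figure D2:**
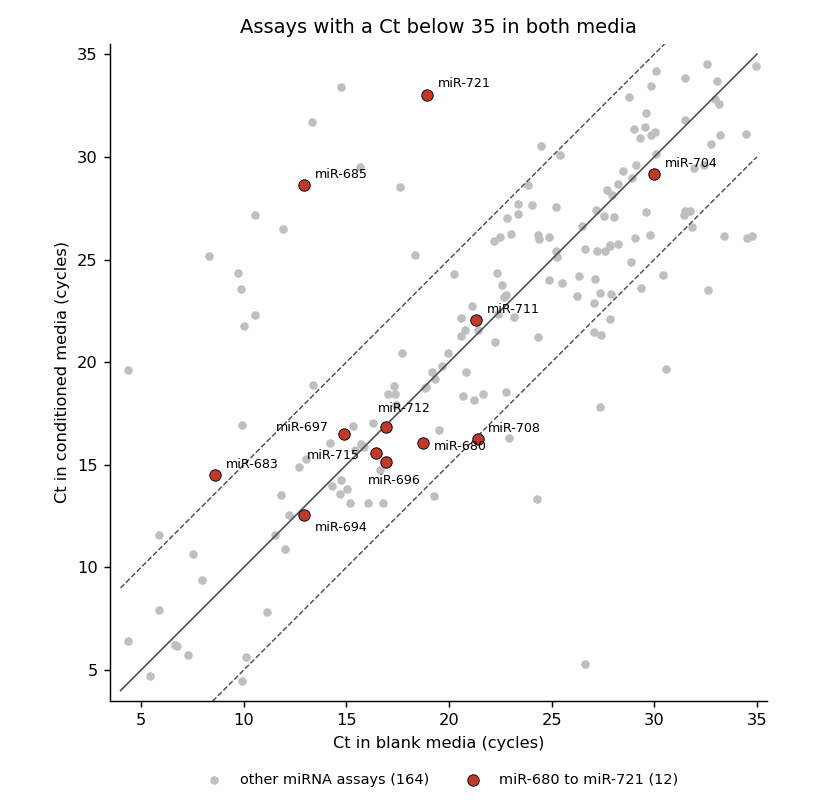
Ct in blank media (x axis, cycles) against Ct in conditioned media (y axis, cycles) for assays with a Ct below 35 in both, with the 12 assays of the block in red and the other 164 in grey, 1 well per medium. The solid line marks equal Ct and the dashed lines 5 cycles to either side; miR-683, miR-685 and miR-721 lie above the upper line and miR-708 just below the lower one.

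A difference of more than 5 cycles towards a later Ct with embryos was found for 3 of the 12 (11.4% of the 176 assays detected in both). For miR-685 the Ct was 28.6 with embryos and 12.9 without, a difference of 15.7 cycles. For miR-721, the Ct was 33.0 and 18.9, a difference of 14.1 cycles. The Ct of miR-683, which has 2 genomic copies, was 14.5 and 8.59, a difference of 5.89 cycles. In blank media, miR-683 was the earliest of the 35 assays. All 3 differences exceeded the largest U6 SD, of 3.22 cycles. That SD is one of single wells and not of differences. The U6 wells behind it, on card A in blank media, ran from 20.2 to 27.1. These lay further apart than the Ct values of miR-683, also on card A. Of the 3 differences, that of miR-685 also exceeded the widest difference between 2 assays of the same name, of 14.7 cycles. Those of miR-721 and miR-683 did not. The value of 14.7 is likewise one between assays in the same medium and not between media.

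The reverse was found for miR-708, the 1 member more than 5 cycles earlier in conditioned media (10.8% of the 176). It is encoded within the teneurin gene Tenm4, and its Ct was 16.3 in conditioned and 21.4 in blank media, a difference of -5.13 cycles, just past the limit. Its minor arm, miR-708#, was undetermined in both media. On card A, which holds this assay, the U6 wells were themselves earlier in conditioned media with a mean difference of -4.08 cycles.

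Across the 12, 7 had an earlier and 5 a later Ct with embryos, with a median difference of -0.222 cycles, beside 0.054 over all 176 assays detected in both. These directions depended on the reference. The mean U6 difference was -4.08 cycles for card A and -7.07 for card B. Taking it as reference moves every assay of a card towards later by that amount. Whether U6 is a steady reference between these media was not tested. Taken relative to the mean of the U6 wells of the same card, 11 of the 12 were later in conditioned media, 10 of them by more than 5 cycles (55.1% over all 176), and none was earlier by more than 5 (1.7% over all). The earlier call for miR-708 was thus lost relative to U6, with a difference of -1.05. It was kept, at -5.01, relative to the median difference of all assays of the card detected in both media. In contrast, miR-683, miR-685 and miR-721 were later by more than 5 cycles with either reference and without one.

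**Figure D3:**
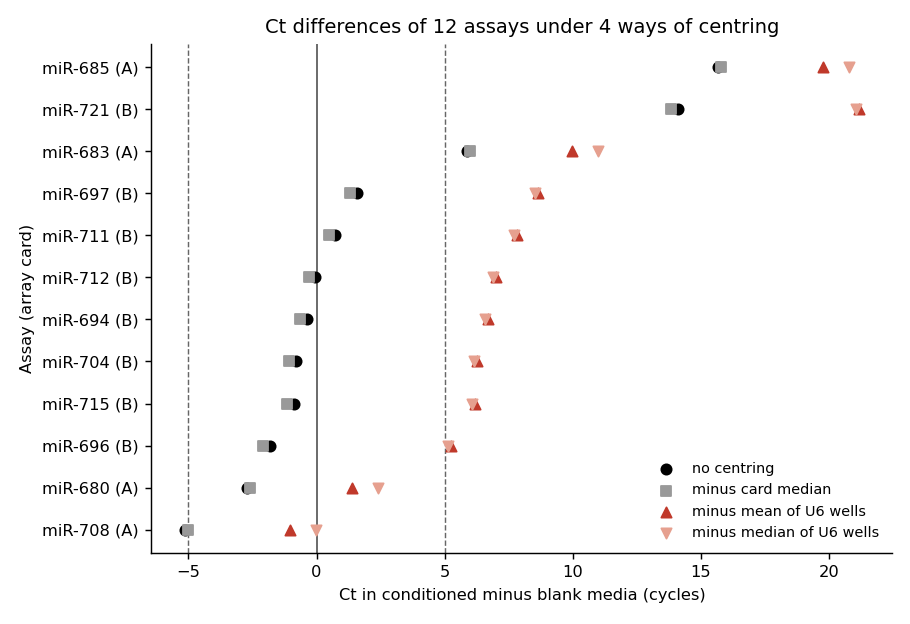
Ct in conditioned minus blank media (x axis, cycles) of the 12 assays detected in both media (y axis, array card in brackets), without centring (circles), relative to the median of all shared assays of the card (squares) and relative to the mean or median of the 4 U6 wells of the card (triangles). Dashed lines mark 5 cycles; 5 of the 12 lie to the right of 0 without centring and 11 with U6 as reference, while miR-685, miR-721 and miR-683 were beyond the right dashed line under all 4.

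In blank media only, 2 members were detected. The Ct of miR-686 in blank media was 20.5, and that of miR-684 was 33.5, and both were undetermined in conditioned media. Both assays are on card A.

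In neither medium, 15 members were detected. Of these, miR-688 had a Ct of 36.4 in conditioned media, later than the limit, and none in blank media. The other 14 were undetermined in both, and they were miR-682, miR-691, miR-693, miR-695, miR-698, miR-700, miR-701, miR-702, miR-707, miR-710, miR-713, miR-717, miR-718 and miR-719. They include miR-702, which is known as a mirtron, a miRNA made by splicing, miR-718, within the Toll-like receptor signalling kinase gene Irak1, and miR-717, within the glypican gene Gpc3. An undetermined Ct in 1 well does not show that the sequence was absent.

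Many of the detected members had a Ct that was early for a miRNA assay. In conditioned media, 11 of the 18 detected members had a Ct below 20 (31.1% of all 280 detected assays), and in blank media 9 of 14 did (38.5% of all 218). The same 7 members were this early in both media, beside 53 of all 750 assays. These members were miR-680, miR-683, miR-694, miR-696, miR-697, miR-712 and miR-715. The median Ct of detected members was 16.7 in conditioned and 17.8 in blank media, beside 25.7 and 23.4 for all other detected assays. U6, a highly abundant RNA, had no well below 18.99 in conditioned media and none below 20.2 in blank media. The limit of 20 was chosen with earlier results of these data known.

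Among detected members, the order of Ct cannot be read as an order of amounts, because each assay has its own efficiency. Neighbours in that order were also close. From miR-683 to miR-712, successive Ct values in conditioned media were 0.204 to 0.636 cycles apart, less than the U6 SD of either card. In blank media, miR-685 and miR-694 were 0.037 cycles apart and miR-712 and miR-696 0.026.

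The block was set beside 2 other groups of mouse assays. In conditioned media, 51.4% of the 35 were detected, beside 34.5% of the 87 mouse assays numbered above 1000 and 40.2% of the 445 other mouse assays with a lower number or a let-7 name, minor arms left out. In blank media the shares were 40%, 28.7% and 31.9% for the same sets. The higher shares of the block rested on wells with a Ct below 20. Leaving them out of every set, which was chosen after seeing the data, gave 20%, 19.5% and 30.8% for conditioned media. For blank media it gave 14.3%, 17.2% and 21.3%, so that the block was no longer highest in either. For sequences detected in conditioned media only, the shares were 17.1%, 11.5% and 14.4%. Counting only those with a Ct of 20 or later in conditioned media, they were 8.57%, 8.05% and 12.8%. Early Ct values made up 61.1% of detected members in conditioned media, beside 43.3% of the assays above 1000 and 23.5% of the other mouse assays. No test was run on these shares, since assays are not replicates of a medium.

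**Figure D4:**
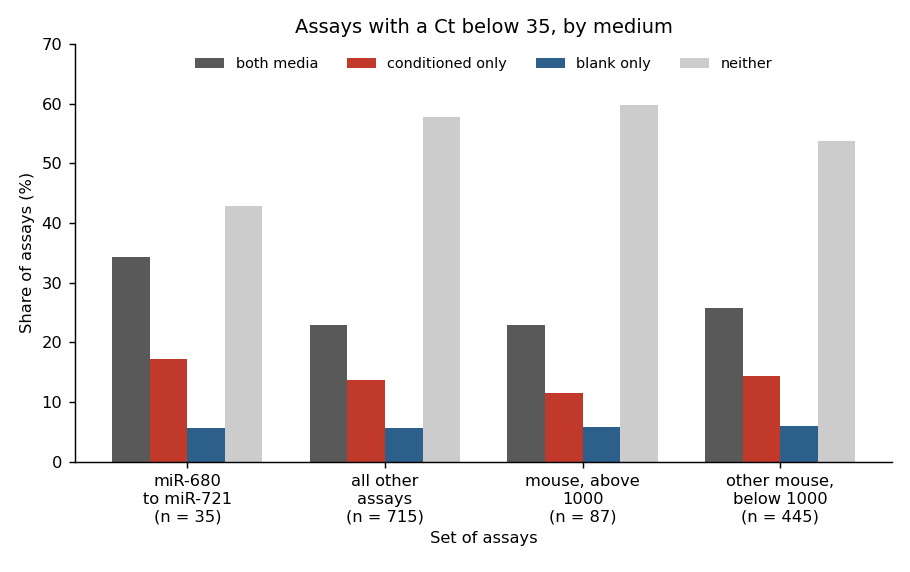
Share of assays in % (y axis, from 0) with a Ct below 35 in both media, in conditioned media only, in blank media only or in neither, for the block and for 3 other sets of assays (x axis, number of assays in brackets; the first of these, all other assays, contains both others). The block had 34.3% detected in both media, the largest such share of the sets plotted, and 42.9% in neither, the smallest such share. With wells of a Ct below 20 left out, these became 5.71% and 71.4%, beside 13.0% and 69.0% for all other assays.

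By card, the block's detection in blank media was uneven. Of its 8 assays on card A, 6 were detected in blank media and 5 in conditioned media, beside 31.7% and 39.3% of the other assays of the card. On card B, 8 of 27 were detected in blank media and 13 in conditioned media, beside 25.2% and 33.8% of the others.

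Assays related to members by sequence or name gave the following values. The seed of miR-721 is that of the miR-130 and miR-301 family, with which miR-721 has been studied in the reprogramming of fibroblasts to pluripotent cells. The assay named miR-130a had a Ct of 26.5 in conditioned and 11.9 in blank media, so that, like miR-721, it was later with embryos. Those named miR-130b, with 33.3 and 37.7, and miR-301b, with 29.7 and undetermined, lay the other way, and the assay named miR-301 was undetermined in both. The shared seed thus went with no common direction. The array also holds an assay named miR-28, without its arm, and the 5p arm of that miRNA has the seed of miR-708. This assay had a Ct of 16.9 in conditioned and 9.92 in blank media, opposite in direction to miR-708. A rat-named assay for miR-711 was undetermined in both media, where the mouse assay had a Ct in both.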

How the data were processed

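Conditioned and blank media, 1 sample each, were run on both cards of the TaqMan rodent array after 12 cycles of pre-amplification and 40 of amplification. For each well, the authors deposited its Ct, a score in cycles on an inverted log2 scale, exported from instrument software without normalization, with wells lacking a Ct given as undetermined. How threshold and baseline were set is not given in the sources used here. A deposited column of fold changes, the authors' own comparison, was not used, and the ΔRn limit that the study also applied was not analysed here.

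Names were selected by number, with 18 control wells left out. A Ct below 35 was called detected, and differences were conditioned minus blank with limits of 5 and -5 cycles. No test was run with 1 sample per medium. Error was taken from U6 wells and from names with 2 assays. Every member is named. Sequences were printed for members detected in conditioned media only and for the earliest 5 in each medium, where RefSeq (GRCm38.p6) had an entry, and for miR-686, miR-708 and miR-721, chosen after their values were seen. The assay named miR-708 was taken as its 5p arm and miR-693 as its 5p arm, since the array holds the other arms under names of their own. The members, lists and limits were chosen with earlier results of these data known. Class counting was tested on simulated data. The software was Python 3.11.15 with numpy 2.4.6, pandas 2.3.3 and matplotlib 3.10.9.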

Additional observations from a re-analysis of the deposited data

How the results depend on the processing

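No paired analysis was possible because each medium had 1 sample. Counts of detected members stayed within 1.5 times of the main counts at Ct limits of 32 and 38, for any determined Ct and for names in place of assays. With wells of a Ct below 20 left out, 7 members were detected in conditioned media, 5 in blank media and 2 in both. Card A alone gave 5 in conditioned media, 6 in blank media, 1 in conditioned media only and 4 in both, and card B alone gave 8 in blank media and 0 in blank media only, as fewer assays were counted. Relative to the mean or the median of U6 wells, 0 members were earlier by more than 5 cycles and 10 were later. The median difference was then 6.85 and 6.74 cycles, and -0.474 relative to the card median. Relative to the card median, the counts stayed at 1 earlier and 3 later. A difference limit of 3 cycles changed neither count. At a Ct limit of 32, miR-721 was no longer detected in conditioned media, which left 2 later members and a median difference of -0.386, and without assays of a Ct below 20 the median was -0.036. The precision is limited by 1 well per assay and medium.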
